A study of Homo sapiens with 16 samples.

Results

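Aminoacyl-tRNA synthetases are the enzymes that load each tRNA with its amino acid. They were taken from the array's gene symbols by a naming pattern, a letter for the amino acid followed by ARS and an optional ending for a mitochondrial enzyme, a subunit or a related gene, with EPRS added. The pattern found 36 of the 18190 symbols on the array, and 34 of these genes were compared, each by the 1 probe of it that was detected. Of the 34, 21 were placed with the cytosolic enzymes and 13 with the mitochondrial ones. HARS2 was left out of the comparison of compartments because this symbol has stood for more than 1 gene and the mitochondrial histidyl enzyme is listed as HARSL. Endings were read by the gene they name: TARSL2 is a cytosolic threonyl enzyme (TARS3 today), TARSL1 is the mitochondrial one (TARS2 today), and FARSLA and FARSLB are the subunits of the cytosolic phenylalanyl enzyme.

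The mRNA was measured in MCF10HER2 cells, derived from nontransformed human mammary epithelial MCF10A cells, in which HER2, a receptor tyrosine kinase, is stably over expressed. The cells grew in serum-free medium without insulin but with EGF at 10 ng/ml, and their HER2 kinase was inhibited with the small molecule CP724,714 at 1 µM. Parallel cultures were harvested every 3 h from 0 h, the only untreated culture, to 45 h, with 1 array for each of the 16 time points and no replicate. Fresh medium came with the inhibitor and no later untreated culture was analysed here, so inhibitor, medium change and time in culture cannot be told apart. Precision is limited by the number of arrays, and the error of a value is that of a line or curve fitted over time.

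Each synthetase pairs 1 amino acid with its tRNAs at the cost of ATP, and the charged tRNA then carries the residue to the ribosome. The cytosol and the mitochondrion mostly use separate enzymes from separate nuclear genes, although GARS and KARS each supply both compartments. In the cytosol, several synthetases sit together with scaffold proteins in the multi-synthetase complex, which holds EPRS, LARS, IARS, MARS, QARS, RARS, KARS and DARS. Many cytosolic synthetase genes are known targets of ATF4, the transcription factor of the amino acid response, which also drives genes for amino acid synthesis and import.

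Between 10363 and 11436 probes were detected on each array. The array background was 136 to 149 intensity units from 0 to 21 h and 164 to 174 units from 24 to 45 h, so the course was also fitted with a separate line for the earlier 8 and the later 8 arrays. Upper quartiles were 397 and 418 units at 9 h and 18 h, the dimmest arrays, against 553 to 804 elsewhere. Of 5 epithelial markers measured, KRT5, KRT17 and TACSTD1 (EPCAM) were detected on all 16 arrays and CDH1 on 15, while KRT14 was detected on 1 array. Of the fibroblast genes, COL1A1, COL1A2 and LUM were detected on none, COL3A1 on 2 arrays and DCN on all 16. Of the immune genes, CD14 and CD68 were detected on all 16, PTPRC on at most 7 and CD3E on 1. The endothelial gene PECAM1 was detected on all 16 and VWF on none. Signals of DCN, CD14 and PECAM1 were at most 567, 507 and 449 intensity units, and CD68 reached 2350. KRT5 was at 17799 units or more on every array. Neither of 2 probes for ERBB2, the gene of HER2, was detected on more than 7 arrays, although the cells over express it. In these bulk extracts a change in the cells present and a change in RNA per cell cannot be told apart.

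Most calls among the cytosolic enzymes were falls and most among the mitochondrial ones were rises. Among the 21 cytosolic enzymes, 7 fell and 1 rose across the 45 h by a straight line in hours, with an adjusted p under 0.05 in limma over all 12321 tested probes. Among the 13 mitochondrial enzymes, 1 fell and 5 rose. Of all tested probes 11.5% fell and 12.9% rose. The median linear change was -0.35 on the log2 scale for the cytosolic enzymes and 0.084 for the mitochondrial ones, beside -0.0022 for all tested probes. Both medians kept their sign with each other scaling tried, but with the arrays scaled to the median of all probes they were -0.085 and 0.32. That scaling turned the split of all tested probes from 1420 falling and 1584 rising to 585 and 2409, and scaling on the tested probes alone, chosen after the data were seen, turned it to 2960 and 1637. The mitochondrial median also fell to -0.031 without the 3 h array.

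**Figure D1:**
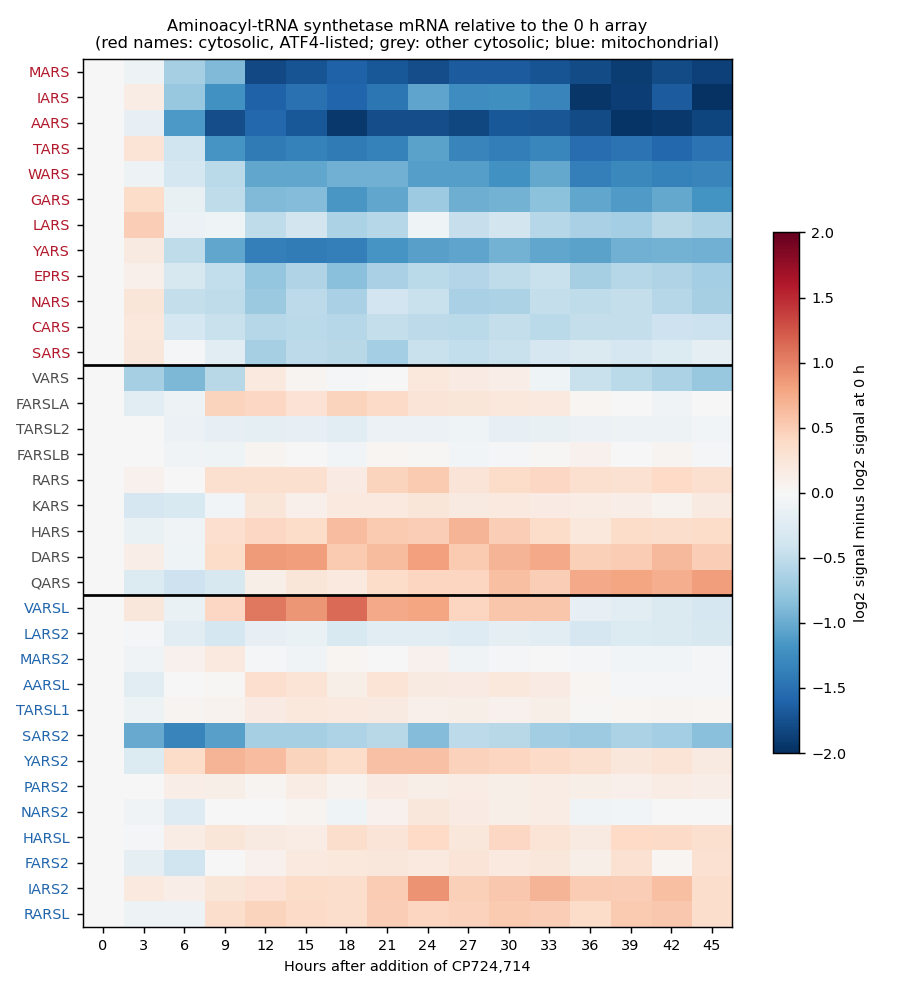
Colour shows the log2 signal of each synthetase (rows) minus its value at 0 h, by hours after addition of CP724,714 (columns, 1 array each), with names in red for cytosolic enzymes listed as ATF4 targets, grey for other cytosolic enzymes and blue for mitochondrial enzymes. The block of red names is below its 0 h value on every array from 6 h on, while the other blocks hold rises as well as falls.

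By the study's threshold, 14 of the 34 synthetases were 1.7-fold or more from their 0 h value on at least 1 array, and 22 were with the arrays scaled to the median of all probes. The 10 that went lower were AARS, EPRS, GARS, IARS, MARS, TARS, VARS, WARS and YARS among the cytosolic enzymes and SARS2 among the mitochondrial ones, where 9.47% of all tested probes did. The 4 that went higher were DARS and QARS and the mitochondrial IARS2 and VARSL, where 10.9% did.

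By a curve in time (a spline with 4 degrees of freedom), 26 of the 34 enzymes were time-dependent, 18 of 21 cytosolic and 8 of 13 mitochondrial, where 41.9% of all tested probes were. The cytosolic enzymes that missed this threshold were FARSLB, RARS and KARS. The mitochondrial ones were MARS2, SARS2, NARS2, HARSL and FARS2. The residual SD about the curve had a median of 0.13 over the synthetases, beside 0.084 for all tested probes.

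The cytosolic enzymes were grouped by whether they are commonly listed as ATF4 targets. AARS, CARS, EPRS, GARS, IARS, LARS, MARS, NARS, SARS, TARS, WARS and YARS are so listed, and all 12 were time-dependent. All 12 also fell over the first 21 h, each with an adjusted p under 0.05 for the slope from 0 to 21 h, where 15.6% of all tested probes fell. Of the other 9 cytosolic enzymes, 1 fell (TARSL2) and 6 rose (FARSLA, HARS, DARS, QARS, RARS and KARS) in the same interval, where 14.6% of all tested probes rose. None of the 13 mitochondrial enzymes fell in that interval and 8 rose. The median early slope was -1.29 over 21 h for the listed enzymes, 0.57 for the other cytosolic enzymes and 0.29 for the mitochondrial ones. The list of 12 was set with earlier results of these arrays known, so these counts describe it and do not test it.

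With other scalings the listed enzymes kept negative slopes, 12 of 12 with each of the 4 other scalings or background corrections. Scaling to the median of all probes left 8 of the 12 past the threshold, and the fall of TARSL2, whose probe was detected on 11 arrays, was not past it with array weights. The slopes above use the scatter of both sets of arrays. With the earlier 8 arrays fitted alone, 11 of the 12 listed enzymes fell (all but NARS), where 5.49% of all tested probes fell. In that fit 1 of the other cytosolic enzymes rose (HARS) and none fell, and 2 of the mitochondrial ones rose (TARSL1 and VARSL), where 5.79% of all tested probes rose. In the joint fit, without the 21 h array 3 of the other cytosolic enzymes rose, and without the 3 h or the 21 h array 4 of the mitochondrial ones did.

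Most of the 12 listed enzymes were above their 0 h value at 3 h and all were below it later. At 3 h, 9 of the 12 were above it, with a median difference of 0.19 on the log2 scale, while 7 of the other 9 cytosolic and 11 of the 13 mitochondrial enzymes were below it, as were 48.0% of all tested probes. At 6 h all 12 were below it, with a median of -0.38. The median went on to -0.53 at 9 h and -0.96 at 12 h, and stayed between -0.89 and -1.08 from then on. All 12 were below 0 h on every array from 6 h, and AARS, MARS and WARS were below it on all 15 treated arrays, as were 10.9% of all tested probes. The other 9 cytosolic enzymes were also below 0 h at 6 h, all 9 of them, but with a median of -0.095, and 8 of the 9 were above it at 12 h with a median of 0.24. At 6 h, 49.3% of all tested probes were below 0 h.

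**Figure D2:**
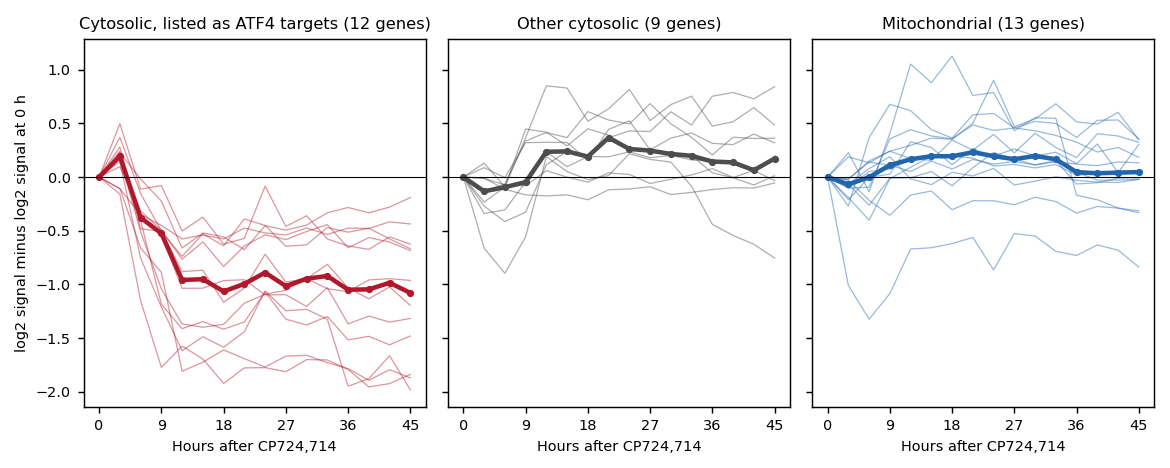
Thin lines show the log2 signal of each gene minus its 0 h value by hours after CP724,714, 1 array per point, in 3 panels for the 12 listed cytosolic, 9 other cytosolic and 13 mitochondrial enzymes, and thick lines show the group median. The median of the listed enzymes goes from 0.19 at 3 h to -0.96 at 12 h and stays low, while the other medians lie between 0.035 and 0.37 from 12 h on.

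MARS, the methionyl enzyme of the complex, had the largest linear fall. Its log2 signal was 10.99 at 0 h and then, from 3 h to 45 h, 10.88, 10.33, 10.10, 9.18, 9.27, 9.38, 9.30, 9.22, 9.32, 9.33, 9.26, 9.21, 9.10, 9.20 and 9.12. It lay near 9.1 to 9.4 on every array from 12 h and above 10 on the 4 arrays before. By 45 h the signal was 3.66-fold lower than at 0 h, and the line gave -1.57 ± 0.30 (SE) over 45 h (limma adjusted p = 0.000844).

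IARS, the isoleucyl enzyme and also a member of the complex, fell nearly as far. Its log2 signal was 11.70 at 0 h and then, from 3 h to 45 h, 11.85, 10.95, 10.49, 10.08, 10.21, 10.12, 10.26, 10.64, 10.46, 10.47, 10.38, 9.75, 9.82, 10.04 and 9.72. The 4 lowest arrays were the last 4, and the highest was 3 h. The linear change was -1.49 ± 0.30 (SE), with a limma adjusted p of 0.00150, and the 45 h signal was 3.95-fold lower than that at 0 h. A further probe for IARS was detected on no array and was not used.

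AARS charges the alanine tRNA. The log2 signal of AARS was 13.21 at 0 h and then, from 3 h to 45 h, 13.05, 12.06, 11.44, 11.64, 11.52, 11.29, 11.43, 11.44, 11.40, 11.51, 11.51, 11.42, 11.26, 11.29 and 11.37. It had reached its low range by 9 h and did not leave it. A line gave -1.33 ± 0.32 (SE), with a limma adjusted p of 0.00550, and the lowest array, 39 h, was 3.88-fold below 0 h.

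TARS, the threonyl enzyme, gave a log2 signal of 12.09 at 0 h and then, from 3 h to 45 h, 12.37, 11.69, 10.91, 10.68, 10.74, 10.67, 10.74, 11.02, 10.77, 10.71, 10.79, 10.57, 10.61, 10.53 and 10.61. Every array from 9 h on was below 11.1, and the 3 arrays before were above 11.6. TARS changed linearly by -1.32 ± 0.29 (SE), with a limma adjusted p of 0.00261.

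WARS, the tryptophanyl enzyme, also known as a gene that interferon induces, was below its 0 h value on all 15 treated arrays. Its log2 signal was 9.87 at 0 h and then, from 3 h to 45 h, 9.76, 9.52, 9.33, 8.83, 8.83, 8.91, 8.91, 8.77, 8.77, 8.66, 8.84, 8.50, 8.57, 8.52 and 8.55. The 4 lowest arrays were those from 36 to 45 h. WARS gave a linear change of -1.21 ± 0.17 (SE; limma adjusted p = 5.02e-05). The linear falls of IARS, TARS, WARS and GARS stayed past the threshold in every setting run, and those of MARS and AARS in all but the later 8 arrays alone, where they were -0.37 and -0.33 per 45 h.

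GARS, the glycyl enzyme of both compartments, had a log2 signal of 13.51 at 0 h and then, from 3 h to 45 h, 13.88, 13.36, 13.01, 12.63, 12.65, 12.35, 12.48, 12.80, 12.54, 12.57, 12.70, 12.48, 12.38, 12.49 and 12.32. The 3 h array was the highest and the 45 h array the lowest. Its line gave -1.12 ± 0.22 (SE), with a limma adjusted p of 0.00115. LARS, the leucyl enzyme, was the smallest of the 7 cytosolic falls at -0.75 ± 0.18 (SE; limma adjusted p = 0.00609), and it missed the threshold when arrays were scaled to the median of all probes, at -0.37.

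EPRS joins the glutamyl and the prolyl enzyme in 1 protein. Its log2 signal was 12.67 at 0 h and then, from 3 h to 45 h, 12.77, 12.36, 12.18, 11.91, 12.07, 11.84, 12.03, 12.13, 12.09, 12.17, 12.23, 12.01, 12.11, 12.07 and 11.99. The signal was highest at 3 h and lowest at 18 h, and every array from 6 h was below 0 h. The linear change was -0.44 ± 0.17 (SE), which did not pass (limma adjusted p = 0.0669), while the slope over the first 21 h was -0.86 ± 0.16 (SE; limma adjusted p = 0.00103).

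YARS, NARS, CARS and SARS, for tyrosine, asparagine, cysteine and serine, likewise passed over the first 21 h but not across 45 h. YARS had the largest early slope among them, -1.58 ± 0.25 (SE; limma adjusted p = 0.000267), and it was 2.64-fold below 0 h at 15 h and 1.95-fold below at 45 h. The early slopes of SARS, CARS and NARS were -0.88, -0.66 and -0.63. At 45 h SARS differed from 0 h by -0.19 on the log2 scale, the smallest difference of the 12.

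**Figure D3:**
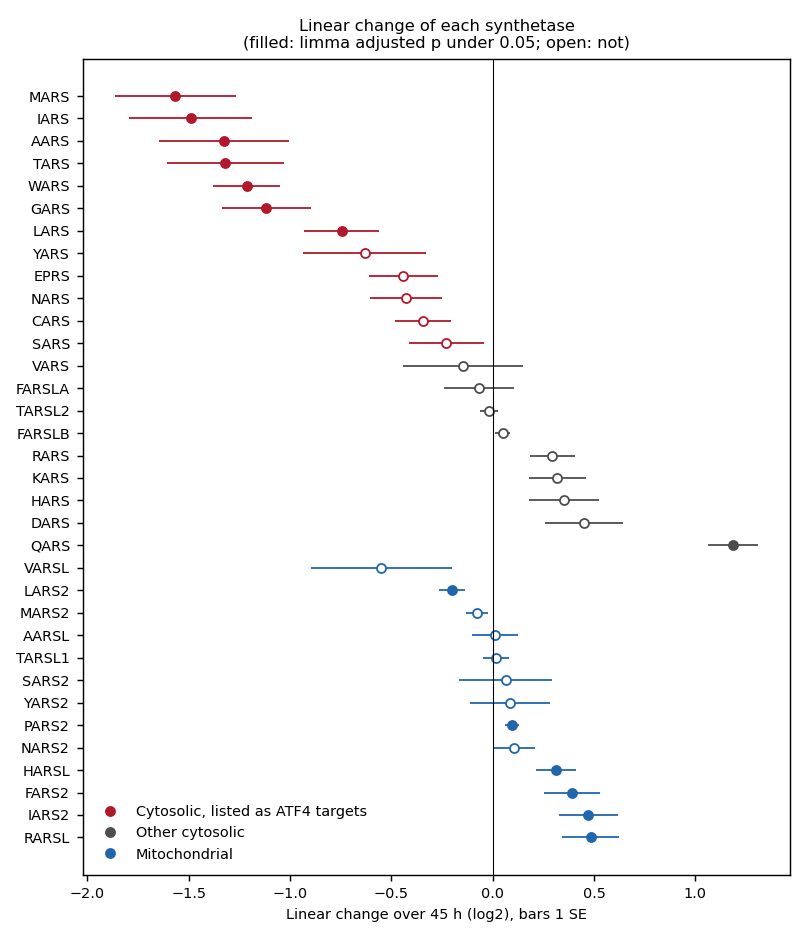
Points show the linear log2 change over 45 h of each synthetase with bars of 1 SE, in red for listed cytosolic, grey for other cytosolic and blue for mitochondrial enzymes, filled where the limma adjusted p was under 0.05. All 12 red points lie below 0, 7 of them filled, from MARS at -1.57 to SARS at -0.23, and QARS at 1.19 is the highest point.

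The promoters of the falling enzymes are shown because ATF4 is known to bind the amino acid response element, whose core was searched as TGATGNAA on both strands (TTNCATCA when read on the other strand). The windows, from RefSeq on GRCh38.p14, run from 250 bases before to 50 after each annotated start, and 27 of the 34 enzymes had 1 or 2. Those without were DARS, LARS, TARSL2, VARS, YARS, AARSL and VARSL. The core was in a window of 7 of the 10 listed cytosolic enzymes matched (70.0%), in none of the 6 other cytosolic ones and in 1 of 11 mitochondrial ones (9.09%). Over the 27305 symbols with a window searched, which left out 1 chromosome, 4.46% held it. EPRS, SARS and WARS were the listed enzymes whose windows did not hold these letters. Since ATF4 binds this element and the list names its commonly listed targets, these shares describe the list and do not test it.

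The sites are printed 5′ to 3′ along the gene's strand with the core in capitals. The first base of the core lay at position -4 from the start for MARS (chr12:57488048-57488087 on the plus strand), -13 for IARS (chr9:92293687-92293726 on the minus strand) and -33 for GARS (chr7:30594829-30594868 on the plus strand). It lay at -187 for AARS (chr16:70289670-70289709 on the minus strand), -2 for CARS (chr11:3057402-3057441 on the minus strand) and 3 for TARS (chr5:33440951-33440990 on the plus strand). It lay at 15 for NARS (chr18:57621807-57621838 on the minus strand), where the core reads along the gene, as it does at -197 in YARS2 (chr12:32756071-32756110 on the minus strand).
MARS: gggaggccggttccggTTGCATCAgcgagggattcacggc
IARS: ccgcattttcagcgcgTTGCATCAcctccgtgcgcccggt
GARS: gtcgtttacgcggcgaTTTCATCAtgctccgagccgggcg
AARS: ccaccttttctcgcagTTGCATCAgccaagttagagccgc
CARS: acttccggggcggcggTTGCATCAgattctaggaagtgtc
TARS: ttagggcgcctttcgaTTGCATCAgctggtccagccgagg
NARS: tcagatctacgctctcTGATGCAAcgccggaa
YARS2: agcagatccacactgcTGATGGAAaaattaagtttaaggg
All of these but GARS and YARS2 read TTGCATCA, or TGATGCAA on the other strand. Of the 7 matched enzymes with a linear fall 5 held the core, and of the 6 matched with a linear rise none did. A match of letters is a description and not a binding site, and no factor was measured on these promoters here.

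None of the other 9 cytosolic enzymes passed the linear threshold as a fall. QARS, the glutaminyl enzyme of the complex, was the 1 cytosolic enzyme that rose. The log2 signal of QARS was 13.03 at 0 h and then, from 3 h to 45 h, 12.76, 12.62, 12.71, 13.15, 13.27, 13.23, 13.40, 13.46, 13.46, 13.64, 13.52, 13.79, 13.82, 13.76 and 13.88. It went below its 0 h value on the 3 arrays from 3 to 9 h and then above it on all 12 that followed, with the highest value at 45 h. QARS changed linearly by 1.19 ± 0.12 (SE; limma adjusted p = 2.80e-06), and the 45 h signal was 1.79-fold that at 0 h. The call for QARS was lost among the settings run only within the earlier 8 arrays, where the change per 45 h was 1.30.

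HARS, DARS, RARS and KARS, for histidine, aspartate, arginine and lysine, gave linear changes of 0.35, 0.45, 0.29 and 0.32 that did not pass (limma adjusted p = 0.150, 0.0995, 0.0634 and 0.108). Their slopes over the first 21 h passed, from 0.37 for RARS to 0.80 for DARS. DARS was 1.80-fold above 0 h at 12 h. FARSLA had an early slope of 0.61 ± 0.16 (SE) and stood 0.012 above its 0 h value at 45 h, while FARSLB, the other subunit of the same enzyme, ranged from 8.02 to 8.18 over all arrays. VARS, the valyl enzyme, followed its own course, with log2 signals of 10.44 at 0 h and then, from 3 h to 45 h, 9.77, 9.54, 9.88, 10.63, 10.49, 10.41, 10.45, 10.66, 10.60, 10.58, 10.35, 10.00, 9.89, 9.81 and 9.68. VARS fell within the later 8 arrays, with a slope of -1.10 ± 0.27 (SE; limma adjusted p = 0.0284). VARS and the mitochondrial VARSL were the 2 of the 34 enzymes that fell there in the joint fit, and none rose, where 2.19% of all tested probes fell and 2.88% rose. With the later arrays fitted alone, 11 fell and 2 rose (SARS and QARS), where 12.8% of all tested probes fell and 12.0% rose. The 11 were GARS, IARS, LARS, TARS and WARS of the listed enzymes, FARSLA and VARS, and the mitochondrial AARSL, NARS2, VARSL and YARS2.

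Enzymes of the multi-synthetase complex took both kinds of course. Of its 8 enzymes, 3 fell and 1 rose linearly, with a median of -0.074, and of the 13 outside it 4 fell and none rose, with a median of -0.35, where 11.5% of all tested probes fell and 12.9% rose. Inside the complex, EPRS, LARS, IARS and MARS all fell over the first 21 h in the joint fit (median linear change -1.12) and QARS, RARS, KARS and DARS all rose there (median 0.38). Of the 3 scaffold genes measured, 2 were tested, and JTV1 (AIMP2) and EEF1E1 each changed by -0.31 without passing the linear threshold. By the curve both were time-dependent (limma adjusted p = 0.0303 and 0.0313), where 41.9% of all tested probes were. Over the first 21 h JTV1 fell with a slope of -0.44 (limma adjusted p = 0.0287), where 15.6% of all tested probes fell. The early slope of EEF1E1, 0.15, did not pass. By catalytic class, 4 of 9 class I and 3 of 11 class II cytosolic enzymes fell, with EPRS, which holds both classes, in neither count, beside the same 11.5% of all tested probes. The difference between these groupings was not tested.

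Linear changes of the 13 mitochondrial enzymes ran from -0.55 for VARSL, which did not pass, to 0.48. Those that rose were RARSL (RARS2 today) at 0.48 ± 0.14 (SE), IARS2 at 0.47 ± 0.15, FARS2 at 0.39 ± 0.14, HARSL at 0.31 ± 0.10 and PARS2 at 0.096 ± 0.035, with limma adjusted p-values from 0.0166 to 0.0487. With the earlier and the later arrays as blocks none of the 5 passed, and IARS2 changed by 0.14 there. The probe of PARS2 was among the dimmest, detected on 14 arrays, and its size depended on the background correction and the scaling, from -0.044 when arrays were scaled to the median of the tested probes to 0.34 with no background correction and 0.51 with normexp and an offset of 50. Without the 0 h array none of the 5 passed, with changes from 0.072 for PARS2 to 0.44 for RARSL, and without the 3 h array IARS2 alone did, with changes from 0.069 to 0.46. Within the later 8 arrays RARSL, IARS2 and FARS2 gave -0.050, -0.63 and -0.021 per 45 h.

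RARSL, the mitochondrial arginyl enzyme, had log2 signals of 9.20 at 0 h and then, from 3 h to 45 h, 9.10, 9.11, 9.56, 9.64, 9.59, 9.56, 9.69, 9.64, 9.66, 9.72, 9.70, 9.57, 9.73, 9.73 and 9.56. Both arrays at 3 and 6 h were below 0 h and the 13 that followed were above it. IARS2, the mitochondrial isoleucyl enzyme, had log2 signals of 11.38 at 0 h and then, from 3 h to 45 h, 11.57, 11.52, 11.63, 11.68, 11.75, 11.74, 11.89, 12.29, 11.85, 11.93, 12.07, 11.90, 11.88, 11.99 and 11.73. It was above 0 h on all 15 treated arrays, as were 12.8% of all tested probes, with its highest value at 24 h. FARS2, the mitochondrial phenylalanyl enzyme, had log2 signals of 9.89 at 0 h and then, from 3 h to 45 h, 9.70, 9.49, 9.88, 9.98, 10.09, 10.10, 10.12, 10.09, 10.15, 10.09, 10.12, 10.01, 10.20, 9.93 and 10.19. FARS2 was not time-dependent by the curve (limma adjusted p = 0.0526), and its linear call was lost in most settings.

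LARS2, the mitochondrial leucyl enzyme, was the only mitochondrial enzyme with a linear fall. Its log2 signal was 8.46 at 0 h and then, from 3 h to 45 h, 8.43, 8.24, 8.10, 8.29, 8.33, 8.15, 8.24, 8.24, 8.20, 8.27, 8.23, 8.12, 8.18, 8.17 and 8.14. All 15 treated arrays were below 0 h, the lowest, at 9 h, with a difference of -0.36. LARS2 changed linearly by -0.20 ± 0.064 (SE; limma adjusted p = 0.0270) and did not pass without the 0, 3, 36 or 45 h array, with the earlier and the later arrays as blocks (-0.33) or when arrays were scaled to the median of all probes. Its change was -0.40 with no background correction and -0.50 with normexp and an offset of 50.

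VARSL (VARS2 today), the mitochondrial valyl enzyme, was high in the middle of the course and lower at 36 h than at 33 h. Its log2 signals were 11.35 at 0 h and then, from 3 h to 45 h, 11.57, 11.21, 11.75, 12.40, 12.22, 12.47, 12.10, 12.13, 11.78, 11.90, 11.89, 11.18, 11.13, 11.06 and 11.01. It was above its 0 h value on the 9 arrays from 9 to 33 h and below it on the last 4. VARSL passed the threshold in both directions, with a slope of 1.13 ± 0.25 (SE; limma adjusted p = 0.00339) in the first 21 h and of -1.21 ± 0.25 (SE; limma adjusted p = 0.0111) from 24 to 45 h. The mitochondrial median against 0 h was 0.17 at 33 h and 0.046 at 36 h.

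SARS2, for serine, stood apart. Its log2 signal was 11.19 at 0 h and then, from 3 h to 45 h, 10.18, 9.86, 10.10, 10.52, 10.53, 10.57, 10.63, 10.32, 10.66, 10.64, 10.50, 10.46, 10.56, 10.51 and 10.35. It was lower than at 0 h on all 15 treated arrays, with a difference of -1.32 at 6 h, and its linear change was 0.063 ± 0.23 (SE). Each of these differences rests on the lone 0 h array. Of the rest, YARS2 rose over the first 21 h with a slope of 0.62 ± 0.21 (SE) and was 1.60-fold above 0 h at 9 h, and AARSL and TARSL1 rose by 0.39 and 0.27. MARS2 and NARS2 passed in neither the curve, the straight line nor the joint fit of slopes, with signals between 8.17 and 8.43 and between 8.40 and 8.89.

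The slope over the later 8 arrays differed from that over the earlier 8 for 20 of the 34 enzymes, and for 11 with the arrays scaled to the median of all probes. The later slope was higher for 10 cytosolic enzymes, 9 of them listed, where 12.7% of all tested probes showed this. It was lower for 4 other cytosolic and 6 mitochondrial enzymes, where 12.1% did. The background of the arrays changed at the same point, and its part in these differences was not tested.

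**Figure D4:**
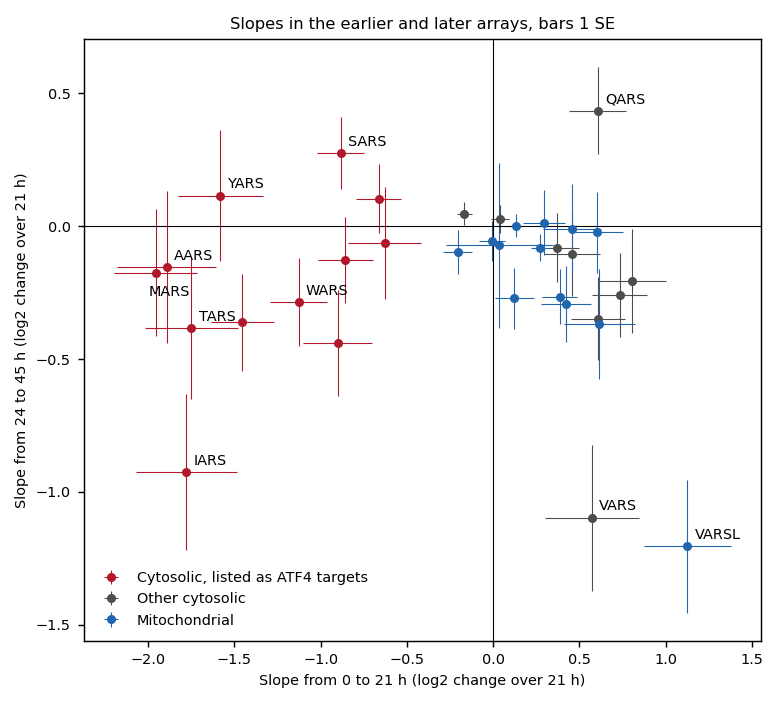
Each point is 1 synthetase with its slope over the arrays from 0 to 21 h (horizontal) and from 24 to 45 h (vertical), both as log2 change over 21 h with bars of 1 SE, in red for listed cytosolic, grey for other cytosolic and blue for mitochondrial enzymes. The listed enzymes spread from -1.96 to -0.63 on the horizontal axis, and VARS and VARSL lie lowest on the vertical axis, at -1.10 and -1.21.

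For 11 amino acids a cytosolic and a mitochondrial enzyme were set side by side, which compares changes and not levels. Phenylalanine and proline were not among them, because the cytosolic enzyme of the one has a pair of subunit genes and that of the other is part of EPRS. For threonine, TARS was the cytosolic enzyme used. The other cytosolic threonyl gene, TARSL2, whose probe was detected on 11 arrays, changed by -0.018, beside 0.016 for the mitochondrial TARSL1. The linear change of the cytosolic enzyme was the lower one in 9 of the 11 pairs, with differences of -1.96 for IARS against IARS2, -1.49 for MARS against MARS2 and -1.34 for both AARS against AARSL and TARS against TARSL1. In the pair for histidine the changes differed by 0.040 and in the pair for valine by 0.40, with the cytosolic enzyme the higher. The pair for arginine differed by -0.19. HARS, VARS and RARS, the cytosolic enzymes of these pairs, are not listed as ATF4 targets. In every other pair the cytosolic enzyme is listed and had the lower change. The ratio of cytosolic to mitochondrial signal was below its 0 h value on all 15 treated arrays in the pairs for isoleucine, methionine and valine. It was below on 14 for alanine, asparagine, threonine and tyrosine. For serine it was below on 1 array. The probes of MARS2, AARSL, TARSL1, LARS2 and NARS2 were dim, with log2 signals of at most 8.43, 8.59, 8.30, 8.46 and 8.89. The offset of the background correction pulls fold changes of such probes toward 1, and its part in these differences was not tested. LARS and LARS2 changed by -0.75 and -0.20 as reported. They changed by -0.65 and -0.40 with no background correction, and by -0.67 and -0.50 with normexp and an offset of 50. No test was run on the pair differences themselves.

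**Figure D5:**
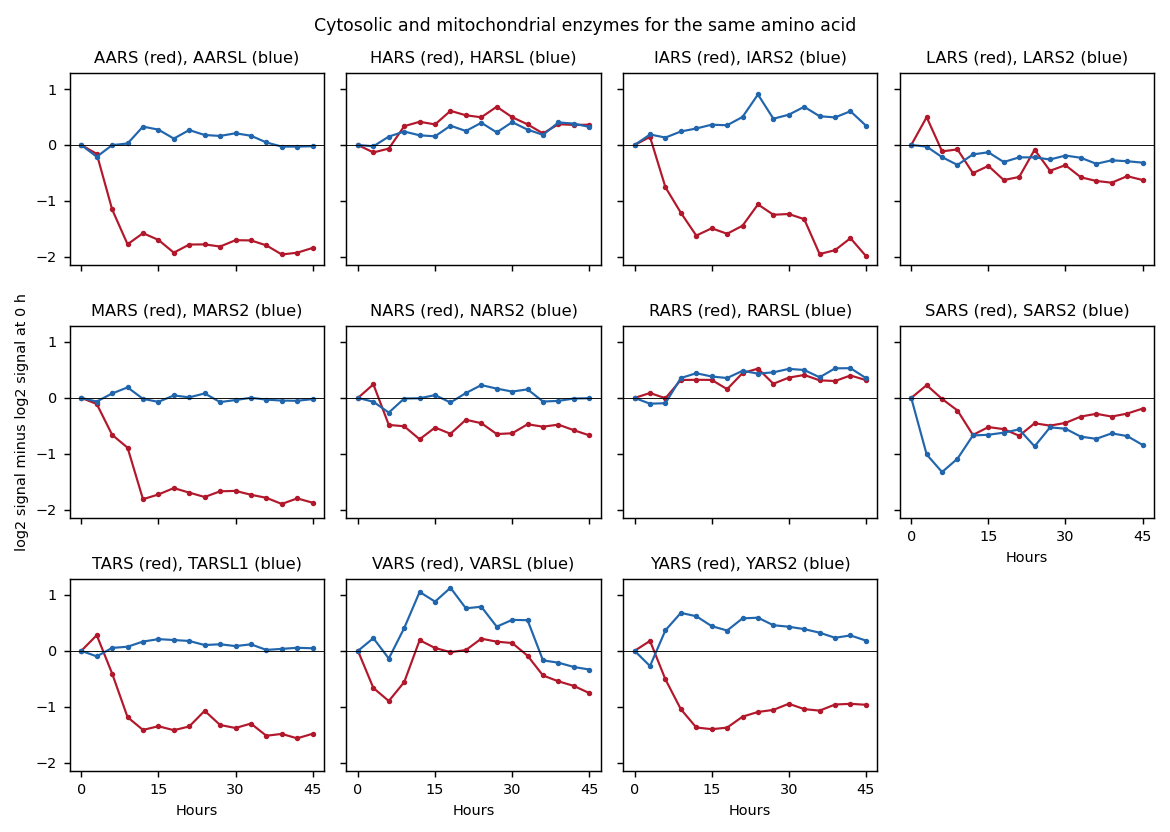
Each panel shows the log2 signal minus its 0 h value by hours after CP724,714 for the cytosolic (red) and mitochondrial (blue) enzyme of 1 amino acid, 1 array per point. Red lies below blue at the end of the course in the panels of AARS, IARS, LARS, MARS, NARS, TARS, VARS and YARS, and the 2 lines nearly meet in that of RARS, with a difference of -0.037.

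The other genes of tRNA charging and of the amino acid response gave a wider view. XPOT, which carries tRNA out of the nucleus, fell by 2.04 ± 0.35 (SE; limma adjusted p = 0.000403). Of 22 tested genes of the amino acid response, 15 fell and none rose, with a median of -0.89, where 11.5% of all tested probes fell and 12.9% rose. The falls were led by the serine synthesis enzyme PSAT1 at -4.27 and the asparagine synthetase ASNS at -3.88. The mRNA of ATF4 itself had a linear change of 0.067, with a limma adjusted p of 0.882, and a slope over the first 21 h of -0.85 with a limma adjusted p of 0.0156. None of 3 tested genes that help charge mitochondrial glutamine and formyl-methionine tRNAs passed the linear threshold, with changes of 0.30 for PET112L and 0.092 for MTFMT.

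Protein synthesis genes beyond the synthetases did not move as 1 group. Of 21 cytosolic translation factors, 3 fell and 5 rose, with a median of -0.062, beside 11.5% and 12.9% of all tested probes. The falls included EIF4EBP1, a repressor of cap-dependent initiation, at -1.45, and EIF2S2, a subunit of the initiation factor that brings the first tRNA, at -0.99. Of 9 mitochondrial translation factors none fell and 2 rose, MRRF at 0.64 and MTIF3 at 0.61. Of 76 mitochondrial ribosomal protein genes, 15 fell and 10 rose, with a median of -0.078, from MRPL54 at -1.49 to MRPS27 at 1.32. The share of them that rose was near the 12.9% of all tested probes, and the share that fell was above the 11.5%. That difference was not tested.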

How the data were processed

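Each culture's RNA was measured on 1 Illumina human Ref-8 v2 beadchip array. The authors deposited the intensity of each probe before normalization between arrays and, beside it, a detection p-value against the array's negative controls. Background was corrected by the neqc function of limma (version 3.58.1, under R 4.3.3) using an offset of 16, which pulls fold changes of dim probes toward 1, and values were quantile normalized as in the study's methods and taken to log2. A probe was tested where at least 3 arrays gave it a detection p under 0.05, which held for 12321 of 20589. The probe with the highest mean signal was used per gene.

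Samples were grouped by the labelled hours. With 1 array per time point, limma (lmFit and eBayes with a trend) tested a natural spline of hours with 4 degrees of freedom, a straight line (log2 change over 45 h) and a line for each of the arrays from 0 to 21 h and from 24 to 45 h (log2 change over 21 h), two-sided, with Benjamini-Hochberg adjustment over all tested probes and a threshold of 0.05. P-values measure the scatter of single cultures about these curves, and for a straight line also any bend of the course away from it. YARS, for example, did not pass by the straight line (limma adjusted p = 0.145) but did by the spline (limma adjusted p = 2.52e-05). The fits were run on simulated data with independent scatter and straight-line changes added to some probes. Those data held no step in background and no dim arrays, so they do not cover these features. The study's 1.7-fold threshold was applied against 0 h as a count with no error term.

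The members, lists and groupings were chosen with earlier results of these data known. The rule for named genes was to name every synthetase, to give every array's value for EPRS, the 6 largest cytosolic falls, the 3 largest cytosolic rises and the 3 largest mitochondrial falls and rises past the linear threshold (fewer where fewer passed), and to name the 2 members that changed most in each other list. Values on every array are also given for VARS, VARSL and SARS2, chosen after they were seen. 1 synthetase that the naming pattern found is not reported here. Alternatives were other background corrections and scalings, detection filters, array weights, a block for the earlier and later arrays, fits within each, and leaving out arrays. A comparison of the protein sequences was not made.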

Additional observations from a re-analysis of the deposited data

Results flagged for a closer look

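The slope from 24 to 45 h differed from that from 0 to 21 h in 20 synthetases (limma adjusted p under 0.05 over all tested probes), and each difference, later minus earlier, is the log2 change over 21 h. Of all tested probes, 12.7% had a higher later slope by this test and 12.1% a lower one. With the arrays scaled to the median of all probes 11 of the synthetases differed. The later slope was higher in MARS by 1.78, AARS by 1.74, YARS by 1.696, TARS by 1.37, SARS by 1.16, GARS by 1.09, WARS by 0.84, CARS by 0.77, EPRS by 0.73 and TARSL2 by 0.21. These 10 are cytosolic, and their earlier slopes were all below 0, from -1.96 for MARS to -0.17 for TARSL2. The later slope was lower in the cytosolic enzymes VARS (-1.67), DARS (-1.01), HARS (-0.99) and FARSLA (-0.95). It was lower in the mitochondrial enzymes VARSL (-2.33), YARS2 (-0.99), IARS2 (-0.72), AARSL (-0.65), RARSL (-0.62) and TARSL1 (-0.35). All of these cytosolic and mitochondrial enzymes with lower later slopes had earlier slopes above 0. The earlier slope is part of each difference, so the signs of the earlier slopes are not a separate observation. The array background stepped up at the same point, and its part in these differences was not tested.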

How the results depend on the processing

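No paired analysis was possible because the arrays carry no replicate numbers beyond 1. Counts are given first as reported and then as changed. The 26 time-dependent synthetases became 22 to 30 over the other settings and 22 to 28 with any 1 array left out, and the 8 linear falls became 6 to 11 and 7 to 11. The 6 linear rises became 3 with no detection filter, 3 with array weights, 1 with the earlier and later arrays as blocks, 2 within the later arrays, and 1 to 6 with 1 array left out, 1 without the 0 h array and 2 without the 3 h array. The 20 slope differences became 11 with median scaling and 14 to 23 with 1 array left out. The 12 early falls of the listed enzymes became 8 with median scaling, and 11 to 12 with 1 array left out. The 1 early fall of the other cytosolic enzymes became 0 with array weights, 0 among probes detected on all 16 arrays, where TARSL2 was not tested, and 0 to 1 with 1 array left out, and their 6 early rises became 3 to 6. With the earlier arrays fitted alone these counts were 11, 0 and 1, and 2 of the 8 mitochondrial early rises passed. The 8 mitochondrial early rises became 4 with no detection filter and 4 to 8 with 1 array left out. The cytosolic median of -0.35 became -0.085 with median scaling, -0.65 with the block and -1.42 within the earlier arrays, and -0.41 to -0.24 with 1 array left out. The mitochondrial median of 0.084 became 0.32 with median scaling, 0.63 within the earlier arrays and -0.17 within the later ones, and -0.031 to 0.13 with 1 array left out. Synthetases past 1.7-fold against 0 h numbered 14, and 22 with median scaling. Reversed were FARS2 (-0.021), IARS2 (-0.63) and RARSL (-0.050) within the later arrays and PARS2 (-0.044) with median scaling over the tested probes. Of 224 linear changes of single called synthetases with 1 array left out, 189 kept their call, 35 lost it and none reversed. The cause was not tested. The mean of several probes per gene was not run, since no synthetase had a second detected probe. The scaling over the tested probes, the counts by ATF4 listing, the earlier arrays fitted alone and the settings of the 1.7-fold count were chosen after seeing the data. Changes of dim probes, such as TARSL2, PARS2 and FARSLB and the mitochondrial TARSL1, MARS2, LARS2 and AARSL, are limited by their signal over background.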

Other observations

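The probe listed as HARS2, in no comparison of compartments, changed by -0.51 ± 0.14 (SE) over 45 h (limma adjusted p = 0.0113) and was below its 0 h value of 11.25 on all 15 treated arrays, with its lowest value of 10.52 at 42 h. HARSL, the mitochondrial histidyl enzyme, changed by 0.31.

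Among 11529 other genes, those whose 16 values correlated best with the mean standardized cytosolic synthetase were COBLL1 (Pearson r = 0.95), CTH (0.94), SLC7A1 (0.94) and BMP2K (0.93). CTH makes cysteine from cystathionine and SLC7A1 imports cationic amino acids. The linear changes of COBLL1, CTH, SLC7A1 and BMP2K were -0.65, -0.15, -0.98 and -0.060, and that of BMP2K did not pass (limma adjusted p = 0.166). CTH was dim, detected on 13 arrays with log2 signals from 7.93 to 8.21. This mean followed the falling enzymes, since 8 of the 21 cytosolic enzymes correlated below 0 with the mean of the others, the lowest HARS (-0.65). For the mean mitochondrial synthetase they were PRMT7 (0.98), ATG4C (0.97), WDR51B (0.95) and DEK (0.95). These values describe likeness over arrays that share their order in time, and no test was run on them.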
